A study of Mus musculus with 2 samples.

Results

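Mediator is a multiprotein coactivator that carries signals from DNA-bound transcription factors to RNA polymerase II at promoters. Its core is built of a head, a middle and a tail, of which the head and middle touch the polymerase and the tail receives most activators. A separate kinase module, made of CDK8 or CDK19, cyclin C, MED12 or MED12L and MED13 or MED13L, binds the core reversibly and can keep the polymerase away from it. In T cells, blocking CDK8 and CDK19 is known to favour expression of the regulatory factor FOXP3, and loss of MED12 or cyclin C is known from human engineered T cells to increase effector function.

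The transcripts of this complex were followed in mouse primary T cells with and without triptolide, a plant diterpenoid that binds the XPB subunit of the general transcription factor TFIIH. Both groups were activated by anti-CD3/CD28 antibodies; 1 array held RNA of cells without triptolide and the other that of cells given 50 ng/ml of it. The labels put the culture of the purified cells at 18 h. They give neither the hours with triptolide nor the strain, age or number of the mice, and no unstimulated sample is used here. Each array measured total RNA of 1 culture, so no value below has a replicate, no test between the groups was possible, and every difference describes these 2 arrays.

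Members were all genes whose symbol is Med followed by a number, with or without a letter, together with Cdk8, Cdk19 and Ccnc (cyclin C). They were 33 of the 18193 genes named on the array, with 72 of its 45037 probe sets; a further probe set was annotated to a member and another gene together and was left out. They were grouped into 11 head, 9 middle, 6 tail and 7 kinase module genes. Med27, Med28, Med29 and Med30, subunits that lie next to both head and tail, are counted with the head. Med14, which spans the core, is counted with the tail. Where a gene had several probe sets, the one brightest on average (log2) over the arrays stands for it. A signal was read against a background floor of 118, the 95th percentile of chemosensory receptor probe sets, and lower signals were set to the floor before ratios were taken. On this scale 33 members were detected, meaning above the floor on 1 array or both, and 31 were measured on both; Med18 and Med12l passed only through the triptolide array. Differences are given as folds or as log2 ratios of triptolide over stimulated, and a fold is written "at least" where 1 side lay under the floor.

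The labelled cell type was checked against its markers. The 10 T cell markers analysed, among them Cd3d, Cd3e, Cd3g, Thy1 and Cd8a, were above the floor on both arrays. Of them 3 (Cd8a, Cd2 and Cd4) were at least 2-fold lower with triptolide, 30% against 12.4% of all detected genes, none was 2-fold higher, and Cd3e and Cd3g had log2 ratios of 0.46 and 0.18. The summed signal of the T cell markers was 63226 without and 43882 with triptolide; this and the sums below include members under the floor. All 5 B cell markers analysed were detected, with sums of 1609 and 1413 and a median log2 ratio of -0.71; Blnk and Cd22 were at least 2-fold lower, and Cd79a went from 349 to 674. Of the myeloid markers 4 of 6 were detected (783 and 1099.5 summed, with Cd14 and Itgam under the floor), and Lyz2 went from 72.2, under the floor, to 259.5. Of the natural killer cell markers 2 of 3 were detected (4402 and 2564, almost all Nkg7, with Ncr1 under the floor), and of the platelet markers 1 of 4 (373 and 476, with Pf4, Ppbp and Gp9 under the floor and Itga2b going from 191 to 407). Neither erythroid marker analysed was detected. Whether these markers came from other cells, and what part such cells had in the Mediator values, was not tested. In a bulk sample fewer cells of a type and less RNA per cell cannot be told apart.

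Most Mediator transcripts lay within 2-fold between the arrays. Of the 33 detected genes, 28 were within 2-fold, as were 8930 of all 10886 detected genes. With triptolide, Cdk8, Med16 and Med30 (3 genes) were at least 2-fold lower, and Med13 and Med18 (2 genes) were at least 2-fold higher. The share lower was 9.09%, against 12.4% of all 10886 detected genes, and the share higher was 6.06%, against 5.60%. Both shares were near the background, so the counts at 2-fold do not set Mediator apart. With a fold of 1.5, 5 of the 33 members were lower and 2 higher, against 26.9% and 13.3% of all detected genes. These member shares lay below the background, and whether they differ from it was not tested. The median log2 ratio was -0.12 for the members and -0.16 for all detected genes, with 14 members below and 19 above the latter value. The SD of the members' log2 ratios was 0.68, and that of all detected genes was 0.77. Log2 ratios below are on the deposited scale, on which a value of -0.16 is that of the typical gene.

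**Figure D1:**
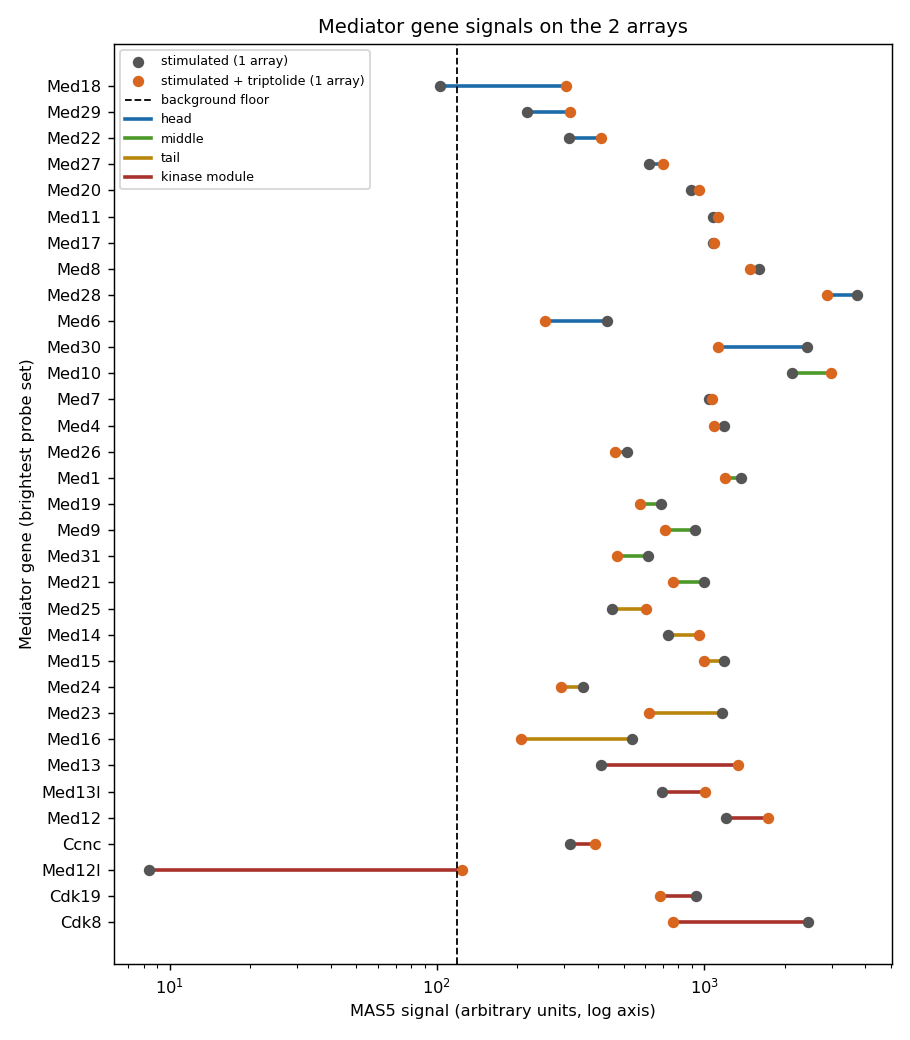
MAS5 signal (log axis) of the probe set that stands for each of the 33 Mediator genes, with a grey point for the stimulated array, an orange point for the triptolide array and a bar coloured by module between them; the dashed line is the background floor of 118. The longest bars above the floor belong to Cdk8 (2448 to 764) and Med13 (412 to 1339), while Med12l and Med18 start under the floor.

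The upstream sequences of 3 of the 5 genes past 2-fold are shown, those whose window does not overlap the annotated span of the gene. The sequences differ widely in base composition. They are the 250 bases before the annotated start, from RefSeq on GRCm38.p6, each on the minus strand and written 5′ to 3′ along the gene, and capitals mark matches to the motifs named below them. The window of Med13 was chr11:86357597-86357846, that of Med16 chr10:79908939-79909188 and that of Med18 chr4:132463922-132464171.
Med13: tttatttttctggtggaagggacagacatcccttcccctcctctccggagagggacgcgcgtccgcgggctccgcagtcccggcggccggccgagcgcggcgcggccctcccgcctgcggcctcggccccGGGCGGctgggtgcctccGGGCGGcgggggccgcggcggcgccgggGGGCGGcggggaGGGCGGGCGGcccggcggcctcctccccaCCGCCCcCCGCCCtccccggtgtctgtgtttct
Med16: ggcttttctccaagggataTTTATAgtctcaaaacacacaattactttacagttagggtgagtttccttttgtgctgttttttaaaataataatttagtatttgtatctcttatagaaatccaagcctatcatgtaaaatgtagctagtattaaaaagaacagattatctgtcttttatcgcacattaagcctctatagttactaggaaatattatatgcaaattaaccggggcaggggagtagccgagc
Med18: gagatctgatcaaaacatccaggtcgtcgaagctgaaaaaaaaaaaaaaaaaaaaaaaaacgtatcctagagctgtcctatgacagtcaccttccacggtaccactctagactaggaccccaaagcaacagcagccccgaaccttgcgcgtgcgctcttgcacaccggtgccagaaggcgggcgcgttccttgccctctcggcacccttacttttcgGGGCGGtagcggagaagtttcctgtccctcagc
Med13, which was higher with triptolide, had 80.0% G and C and 7 matches to GGGCGG, the letters bound by SP factors. Med16, which was lower, had 33.2% G and C and a single match to TATAAA, read on the opposite strand and far from the start. Med18 had 52.8% G and C and 1 match to GGGCGG. The window of Cdk8, which was lower, had 66.4% G and C, 1 match to GGGCGG and 1 to CACGTG. It overlaps the gene's annotated span and is not printed, and no window was available for Med30. Whether base composition goes with the direction of change was not tested.

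Of the 33 genes, 28 had 1 or more RefSeq windows, 32 windows in all, and the motifs were searched on both strands. GGGCGG was in 20 of the 32 (62.5%), against 32.7% of all 32851 windows and 42.6% of the 21262 windows of protein-coding genes. CCGGAAG, the core of ETS factor sites, was in 6 (18.75%), against 6.91% and 8.98%. CCAAT was in 12 (37.5%), against 33.85% and 35.4%. TATAAA was in 3, the E-box CACGTG in 2, the cyclic AMP response element TGACGTCA in 1 and the NRF1 motif in none, against 12.4%, 6.02%, 1.55% and 0.782% of all windows. In the member windows 1 match overlapped a match of another motif. Of the 32 member windows 12 overlap the annotated span of their gene by 1 base or more, as that of Cdk8 does. GGGCGG was in 8 of these 12 and in 12 of the other 20. Some windows of a gene overlap each other, so they are not independent. The median share of G and C was 56.0% for the members, 55.6% for protein-coding genes and 52.4% for all windows. These matches describe letters and are neither sites nor causes.

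The kinase module held the widest spread of the modules, set mainly by Cdk8 and Med13 among its 7 genes. Its other genes had log2 ratios between -0.45 and 0.53, and whether the spread is a trait of the module was not tested. Its enzyme Cdk8 was 3.20-fold lower with triptolide, while Med13, the subunit that ties the module to the core, was 3.25-fold higher. Cdk8, a cyclin-dependent kinase that phosphorylates transcription factors and Mediator itself, had a signal of 2448 without triptolide and 764 with it. It had a single probe set, so no second reading within the gene exists. Its log2 ratio of -1.68 was the lowest of the members and lay between -1.87 and -1.50 under 11 alternative settings. With a single probe set far above the floor, most of these settings could not change this value.

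Cdk19, the paralogue that can replace Cdk8 in the module, went from 932 to 684 on its brighter probe set, a log2 ratio of -0.45. Its dimmer probe set went from 460.4 to 229, a log2 ratio of -1.01. Both readings were lower with triptolide, the second just past 2-fold. The log2 ratio of Cdk8 minus that of Cdk19 was -1.23. Over the 3733 genes with several measured probe sets, the SD per probe set was 0.49, which gives an SD of 0.69 for a difference between any pair of probe sets. That SD covers probe behaviour and transcript variants and not the spread between cultures, so whether the pair differ between cultures was not tested.

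Ccnc, the cyclin that partners both kinases, gave no single direction. Its brightest probe set went from 315 to 391, a log2 ratio of 0.31. The next pair of probe sets went from 208 to 142 and from 184.9 to 128, with log2 ratios of -0.54 and -0.53. A further probe set was above the floor only with triptolide (33.7 to 129.9), and another was under the floor on both arrays.

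Med13 had 3 detected probe sets, and all were higher with triptolide. The brightest went from 412 to 1339 (log2 ratio 1.70), the next from 310.3 to 509.8 (0.72), and the third from 78.8, under the floor, to 205 (at least 1.73-fold). With the median of these 3 probe sets in place of the brightest, the log2 ratio was 0.79 and within 2-fold. The other probe sets of Med13 were under the floor on both arrays.

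Med13l, its paralogue, went from 697 to 1010.2, a log2 ratio of 0.53, and from 246 to 259 on its second measured probe set, a log2 ratio of 0.07. The log2 ratio of Med13 minus that of Med13l was 1.16. Med12, which activates the kinase through cyclin C, went from 1204 to 1740.5 on its single probe set (log2 ratio 0.53). Its paralogue Med12l was at 8.4 without and 124 with triptolide on 1 probe set, barely above the floor of 118, and under the floor on the other probe sets, so no fold is given. In 11 alternative settings the log2 ratios of Med12, Med13 and Med13l stayed above 0 (0.34 to 0.70, 0.79 to 1.91 and 0.30 to 0.73). Those of Cdk8 and Cdk19 stayed below 0 (Cdk19 from -0.73 to -0.24). Cdk8 and Med12 have 1 probe set each, far above the floor, so most of these settings could not change their values. Their constant sign is therefore no measure of robustness.

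The tail, which receives activators, had 1 of 6 genes at least 2-fold lower (16.7%, against 12.4% of all detected genes) and none higher (against 5.60%). With so few genes these counts do not set the tail apart. Its median log2 ratio was -0.27. Med16 went from 538 to 206 on its single probe set and was 2.61-fold lower. Med23, a docking subunit for the MAP kinase-controlled factor ELK1, went from 1169.8 to 620.4 on a single probe set. Its log2 ratio of -0.91 was the closest to 2-fold among members that did not reach it. Med24, the tail subunit next to MED16 and MED23 in the complex, went from 354 to 291 (log2 ratio -0.28).

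Med15, which binds the SREBP factors of lipid synthesis, went from 1190.5 to 997 (log2 ratio -0.26). Its second measured probe set went from 451 to 232 (-0.96), so both were lower. Med25, bound by ETS factors of the PEA3 group, was higher on both probe sets, from 454 to 608 (log2 ratio 0.42) and from 257 to 423.5 (0.72). Med14, the backbone that joins head, middle and tail, was split. It went from 730.5 to 954 (0.39) on the brightest probe set and from 258 to 193 (-0.42) on the next, with the dimmer pair of detected probe sets also on opposite sides of 0.

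The head, which contacts the polymerase and the general factors, had 1 of 11 genes past 2-fold in each direction. That is 9.09% each way, against 12.4% of all detected genes lower and 5.60% higher. Its median log2 ratio was 0.05. Med30, a subunit known from animals and not from budding yeast, went from 2434 to 1122 on its single probe set and was 2.17-fold lower. Med6, a conserved head subunit, went from 432 to 254 (log2 ratio -0.77), and its dimmer detected probe set was under the floor with triptolide (124 to 45.5). Med18 went from 102.5, under the floor, to 304 on its single probe set and was at least 2.57-fold higher.

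Med20, the partner of MED18 in a movable part of the head, went from 890.4 to 954 (log2 ratio 0.10) and from 555 to 808 on its second probe set (0.54). Med8, which anchors that pair to the head, went from 1608 to 1482 (-0.12) on a probe set shared between transcripts, and on its dimmer one from 93.8, under the floor, to 161 (at least 1.36-fold higher). The core head gene Med17, the main scaffold of the head, went from 1074.6 to 1092 (0.02). Med11 and Med22, which form a dimer, went from 1082 to 1123 (0.05) and from 312 to 409.7 (0.39). On the probe sets that stand for them, Med8, Med11, Med17 and Med20 had log2 ratios between -0.12 and 0.10.

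Med28 gave opposite readings. Its bright probe set went from 3735 to 2877 (log2 ratio -0.38), while a dim one went from 101.4, under the floor, to 339.6 (at least 2.87-fold higher). Med27 went from 624 to 704 (0.18). Med29 went from 217 to 316 (0.54), and its second detected probe set went from 131 to under the floor (77.3).

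The middle, which joins head and tail and contacts the polymerase, showed the narrowest spread. All of its 9 genes lay within 2-fold, as did 8930 of all 10886 detected genes. Their log2 ratios were between -0.39 and 0.49, with an SD of 0.28 against 1.04 in the kinase module, which holds Cdk8 and Med13. The SD of the middle is below the 0.49 found per probe set over all genes. The limit to bright genes kept all 9 middle genes but only 5 of the kinase module. Whether the narrow spread is a trait of the module was not tested. Med21 and Med7, which form the hinge of the middle, went from 998 to 762 (-0.39) and from 1043 to 1068 (0.03). Med31, a conserved subunit bound to MED7, went from 616 to 472 (-0.38). Med4, a structural partner of MED9, went from 1181.5 to 1084 (-0.12). Med10, which contacts the backbone MED14, was the highest of the middle, from 2129 to 2985 (0.49).

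Med1, the subunit that binds nuclear receptors, had 5 detected probe sets of 7. Its brightest went from 1371 to 1197 (-0.20), the next from 809.9 to 874.5 (0.11) and the third from 380.4 to 283 (-0.43). The dimmer detected ones went opposite ways, from 70.7 to 199.5 and from 225 to 11.8. Med9 (-0.38 and 0.47), Med19 (-0.26 and 0.60) and Med26, which docks elongation factors (-0.15 and 0.43), each had a bright probe set below 0 and a dimmer one above 0. No direction is given for these 4 genes.

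**Figure D2:**
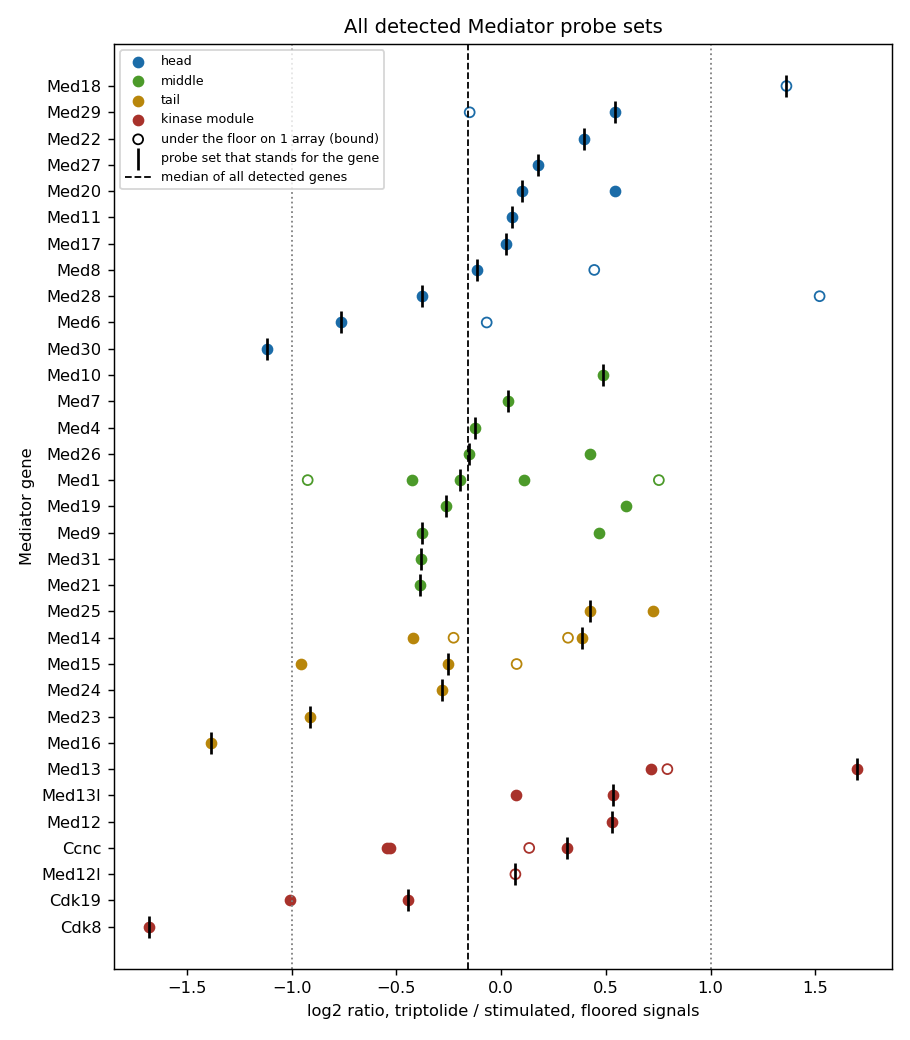
Log2 ratio of triptolide over stimulated signal for the 58 detected Mediator probe sets by gene, filled where measured on both arrays and open where 1 side was under the floor; black ticks mark the probe set that stands for the gene, dotted lines 2-fold and the dashed line the median of all detected genes (-0.16). The probe sets of Med28 and Med1 lie farthest apart, with log2 ranges of 1.90 and 1.68.

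Probe sets of one member often differed. Of 16 genes with more than 1 detected probe set, 10 had readings on both sides of 0. In 3 of these (Med28, Med1 and Med15) the readings were at least 2-fold apart. Each of these gaps used a reading that was under the floor on 1 array, and the Med15 reading above 0 was a bound near the floor. Among the 12 members with several measured probe sets, the brightest pair had the same sign in 6 (50%), against 72.0% over the 3733 genes of the array with such a pair. Whether these shares differ was not tested, and 12 genes are few. The SD per probe set was 0.48 for the members and 0.49 for all genes, while the median absolute difference within such a pair was 0.64 for the members and 0.37 for all genes. Over probe sets, 4 of 58 detected were at least 2-fold lower (6.90%, against 12.8% of all 19209 detected probe sets with 1 gene symbol) and 3 at least 2-fold higher (5.17%, against 5.69%). Their median log2 ratio was 0.04, against -0.17 for all detected probe sets, whereas over genes the members' median was -0.12.

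**Figure D3:**
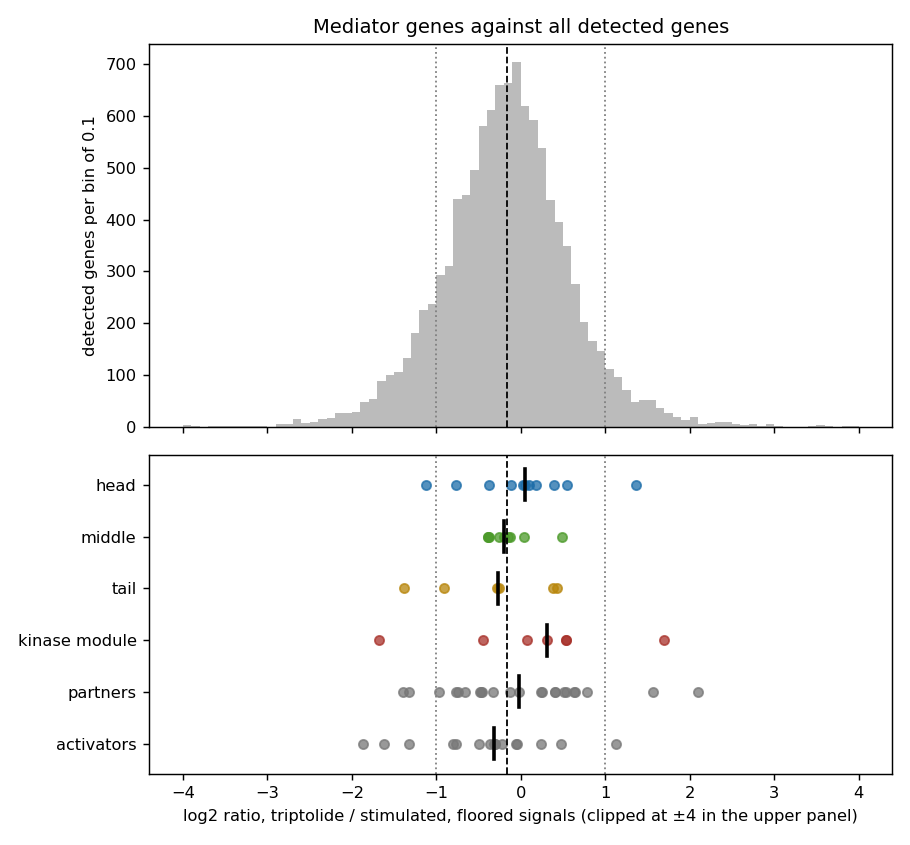
The upper panel counts all 10886 detected genes by log2 ratio of triptolide over stimulated, in bins of 0.1, and the lower panel shows each detected gene of the Mediator modules and of the partner and activator lists as a point with the list's median as a black bar. Dotted lines mark 2-fold and the dashed line the median of all detected genes (-0.16); the module medians lie between -0.27 (tail) and 0.31 (kinase module).

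Genes whose products work with Mediator were read beside it. Of 23 partner genes analysed and detected (coactivators, cohesin and elongation factors), 2 were past 2-fold in each direction (8.70%, against 12.4% of all detected genes lower and 5.60% higher), with a median log2 ratio of -0.02. The nuclear receptor coactivator Ncoa3 went from 1323 to 505 (2.62-fold lower) and Ncoa6 from 919 to 368 (2.50-fold lower). Mau2, a subunit of the cohesin loader, went from 202 to 863 (4.26-fold higher), and the elongation factor gene Ell2 from 114.7, under the floor, to 350.2 (at least 2.96-fold higher). The other subunit of that loader, Nipbl, had a log2 ratio of -0.33, from 3568 to 2844. Members of cohesin, the ring that holds enhancers and promoters together, had log2 ratios of -0.97 (Smc3), -0.74 (Rad21), -0.67 (Stag2), -0.02 (Smc1a) and 0.51 (Stag1).

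Transcription factors described to contact Mediator gave a median log2 ratio of -0.31 over the 16 detected of 23 analysed. Of these, 3 were past 2-fold downwards (18.75%, against 12.4% of all detected genes) and 1 upwards (6.25%, against 5.60%). Srebf1, the lipid synthesis factor that binds MED15, went from 2262 to 622 (3.64-fold lower). Cebpb, a factor that contacts MED23, went from 847 to 275 (3.08-fold lower), and the TGF-beta effector Smad2 from 1434 to 575 (2.49-fold lower). Atf6, an endoplasmic reticulum stress factor that binds MED25, went from 383.5 to 839.9 (2.19-fold higher). Elk1, the partner of MED23, was under the floor on both arrays.

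The direction of the array as a whole depended on how the arrays were scaled. Of all genes past 2-fold, 68.8% were lower as deposited, 58.0% after centring both arrays on their medians, 50.8% after quantile normalization and 81.4% with the housekeeping genes set to 0. The median of all detected genes was -0.05, 0.00 and -0.32 under these 3 settings. Cdk8 and Med16 were at least 2-fold lower and Med13 and Med18 at least 2-fold higher under each of the 3. Med30 was within 2-fold after centring (-0.99) and quantile normalization (-0.94), and Med23 passed 2-fold with the housekeeping genes set to 0 (-1.10). The members' median minus that of all detected genes was 0.04 as deposited and ranged from -0.04 to 0.21 over the 11 alternatives.

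**Figure D4:**
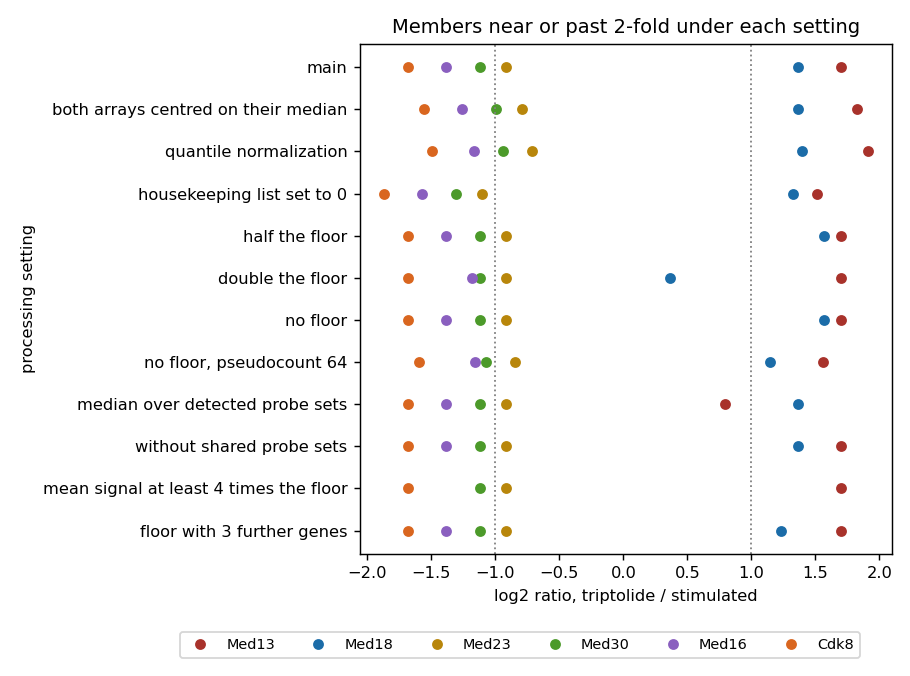
Log2 ratio of triptolide over stimulated for the 5 members past 2-fold and for Med23, the nearest below it, under the deposited scale (main) and 11 alternative settings, 1 row each; dotted lines mark 2-fold and a missing point means that the gene was not kept under that setting. Cdk8 stays between -1.87 and -1.50 in all settings, while Med18 drops to 0.36 with the floor doubled and Med13 to 0.79 with the median of its detected probe sets.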

How the data were processed

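Total RNA was labelled with biotin and hybridised to Affymetrix arrays, 1 per group, per the labels' protocols. For each probe set the authors deposited a linear signal intensity, made with MAS5 according to the submitters' processing notes, which name neither version nor scaling. Trimmed by 2% at each end, the mean intensity of the 100 probe sets at the top of the table was 2000 on either array, whereas over all 45037 it was 383 without and 340 with triptolide. The common level of the arrays thus appears to rest on those 100. The number of arrays limits the precision.

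Of the probe sets, 34945 had 1 gene symbol in the platform annotation, 932 had several and 9160 none, and only the first kind was used. Symbols were updated through the Entrez numbers of 34741 in the RefSeq table of GRCm38.p6, which changed none of the members' symbols. The floor was the higher of the arrays' 95th percentiles (106.8 and 118.4) over 87 chemosensory receptor probe sets. Genes were counted at 2-fold, with no test. The text names every member, and of the other lists those past 2-fold with a few chosen after their values were seen. The members and lists were chosen with earlier results of these data known. The calculation was tested on simulated data. Python 3.11.15, NumPy 2.4.6 and pandas 2.3.3 were used. Alternatives were 3 scalings, 4 treatments of the floor, the choice of probe sets, a limit to bright genes and a fold of 1.5. The planned symbol pattern for the floor also took in 3 genes that are not receptors, and that floor is an alternative added after seeing the data. The protein identity of the kinase module paralogues was not analysed here.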

Additional observations from a re-analysis of the deposited data

How the results depend on the processing

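Single arrays, a single scaling and, for 14 of the 33 members, a single probe set limit these values, and signals near the floor of 118 carry little information. No paired analysis was possible because each group has 1 array. The 53 values of the 5 members past 2-fold kept their sign under the alternatives, while 17 of the 296 values of the other members changed sign, in 12 genes. This contrast does not measure robustness, because members past 2-fold were picked for lying far from 0. Cdk8, Med16, Med18 and Med30 also have 1 probe set each, and for 1 probe set no floor or pseudocount can reverse a sign. Of all 349 values, 8 changed side of the 2-fold line. The causes were not tested beyond what each setting does. Genes at least 2-fold higher (2) numbered 1 with the floor doubled (5.11% of all detected genes) or the median over detected probe sets (4.76%). They numbered 1 with the limit to a mean signal of 4 times the floor (5.18%). They numbered 3, Med12l included, with the floor halved, no floor or a pseudocount of 64. At 1.5-fold, 5 members were lower (3 at 2-fold) and 2 higher, against 26.9% and 13.3% of all detected genes. Probe sets higher (3) numbered 8 at 1.5-fold, 8 with the floor halved, 11 with no floor, 5 with a pseudocount of 64, and 1 with the floor doubled or the limit to bright genes. The share of all detected genes higher moved too, from 5.60% to 7.32% with the floor halved, 15.7% with no floor and 4.92% with the pseudocount. Probe sets lower (4) numbered 8 at 1.5-fold, 7 with the floor halved or the housekeeping genes set to 0, 10 with no floor, and 2 after centring, after quantile normalization or with the limit to bright genes. The share of all detected genes lower moved from 12.4% to 13.5% with the floor halved, 17.0% with the housekeeping genes set to 0 and 20.1% with no floor. It was 9.78% after centring, 8.34% after quantile normalization and 13.0% with the limit to bright genes. Shares of all probe sets under these settings were not calculated. The members' median log2 ratio (-0.12) was 0.0073 after centring, 0.072 after quantile normalization, -0.31 with the housekeeping genes set to 0, 0.046 with the median over probe sets and 0.023 without probe sets shared between transcripts. With the housekeeping genes set to 0 the medians were -0.13 (head), -0.21 (partners) and -0.50 (activators), and after quantile normalization 0.24, 0.14 and -0.11. With the median over probe sets they were 0.068 (kinase module), 0.034 (middle) and -0.22 (partners), and with the limit to bright genes 0.065 (tail, 4 genes left). Over single members, Med12l had a log2 ratio of 1.07 with the floor halved, 1.38 with the pseudocount and 3.88 with no floor, all resting on a signal of 124 against 8.4. Under the floor added after seeing the data, the same genes were past 2-fold and 32 members were detected.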
